A study of Mus musculus with 2 samples.

Results

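Osteoclasts and their fusing precursors were examined among cells released from healing mouse calvarial defects, in 1 library from mice given gambogic amide (GA) and 1 library from mice given vehicle (control). Cells were taken by a rule on measured transcripts. A cell had to hold at least 20 UMIs (unique molecular identifiers, each standing for 1 captured transcript) of Acp5 and at least 5 UMIs of Ocstamp, Dcstamp and Atp6v0d2 together. S100a8 and S100a9 had to make up under 3% of its UMIs and Bglap and Bglap2 under 0.5%. The rule was applied within limits of 500 and 140000 on a cell's UMIs, of 200 and 9500 on its genes and of 15% on its mitochondrial transcripts, and 113 of 17129 such cells met it (29 of 9036 GA, 84 of 8093 control). The levels of these 8 genes in the chosen cells are therefore given as a description only.

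Mice were C57BL/6 by their label and C57BL/6J in the paper, 2 months old, with a full-thickness frontal bone defect of 1.8 mm. GA, a small-molecule agonist of neurotrophin signalling, was given intraperitoneally at 1.2 mg/kg in 100 µL of 10% DMSO, beginning 24 h before injury and then daily for 1 week, and control mice received 100 µL of 10% DMSO. On day 7 a piece of bone of about 3 mm around the defect was minced, digested 6 times with collagenase and passed through a 40 µm strainer, and cells of 5 mice were pooled in each library. A strainer of this width and a droplet assay limit how well large multinucleated osteoclasts could be sampled. With 1 pooled library per condition there is no replicate, so no difference between GA and control has a test. The intervals below cover counting error only, and the treatment and the library cannot be told apart.

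Osteoclasts are the bone-resorbing cells of the monocyte and macrophage lineage. CSF1 keeps their precursors alive, and RANK ligand from mesenchymal cells, acting through RANK (Tnfrsf11a) together with ITAM-bearing costimulatory receptors, raises the transcription factor NFATc1. Precursors leave the cell cycle, fuse through DC-STAMP and OC-STAMP, attach to bone through the αvβ3 integrin, acidify the space beneath them with a vacuolar proton ATPase and digest the matrix with cathepsin K and MMP9. In a healing bone defect they remove bone fragments and remodel new woven bone.

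The promoter windows of Ctsk (cathepsin K, the main collagenase of the osteoclast) and Oscar (an osteoclast-associated costimulatory receptor) are shown because neither gene was part of the rule and their levels ranked the chosen cells alike (Spearman 0.81). They are the 250 bases before the annotated start, from RefSeq on GRCm38.p6. Capitals mark matches on either strand to the NFAT core TGGAAA, the PU.1 core GAGGAA or the MITF M-box TCANGTG.

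Ctsk, chr3:95498960-95499209, plus strand: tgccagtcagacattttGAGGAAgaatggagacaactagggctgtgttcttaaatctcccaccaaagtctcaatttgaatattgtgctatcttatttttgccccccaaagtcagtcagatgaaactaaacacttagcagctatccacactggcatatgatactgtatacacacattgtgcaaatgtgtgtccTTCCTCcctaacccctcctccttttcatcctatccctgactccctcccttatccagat

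Oscar, chr7:3616158-3616407, minus strand: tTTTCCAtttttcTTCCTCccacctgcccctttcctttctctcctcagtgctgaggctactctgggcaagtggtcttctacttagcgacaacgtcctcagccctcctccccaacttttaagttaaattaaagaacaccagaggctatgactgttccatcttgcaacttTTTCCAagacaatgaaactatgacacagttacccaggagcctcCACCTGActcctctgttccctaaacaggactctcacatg

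The Ctsk window held GAGGAA with its first base 233 bases before the start, and again on the opposite strand 58 bases before it. The Oscar window held TGGAAA 249 and 82 bases before the start, GAGGAA 237 bases before it and TCANGTG 39 bases before it, all on the opposite strand. Neither window held the AP-1 sequence TGANTCA. Among 32817 RefSeq windows of this length, 18.6% held TGGAAA, 23.3% GAGGAA, 12.2% TCANGTG and 6.75% TGANTCA, so such matches are common. Of 9 marker genes looked up, 3 had windows in the table. Acp5 had 3, and the one at chr9:22130599-22130848 held TGGAAA and TCANGTG on the opposite strand, 117 and 90 bases before its start. That window lies within the gene and overlaps an annotated exon of Acp5, and the other Acp5 windows held none of the motifs. Ocstamp, Dcstamp, Atp6v0d2, Mmp9, Itgb3 and Nfatc1 had none. In the GENCODE vM21 annotation of GRCm38, which is not the annotation the counts were made with, Ctsk lies at chr3:95499256-95509362, Oscar at chr7:3609813-3616157 and Acp5, which encodes tartrate-resistant acid phosphatase, at chr9:22126727-22135711. Mmp9 (chr2:164940780-164955850) and Ocstamp (chr2:165393760-165400405) share a chromosome.

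The chosen cells were deeply sampled. Because the rule asks for fixed numbers of UMIs, deeper cells meet it more readily, so this depth was in part set by the choice. The GA library held 182949385 UMIs in 9322 barcodes and the control library 214993030 UMIs in 8718 barcodes. Chosen cells had a median of 49648 UMIs in GA (28683 to 95004) and 51094 in control (10049 to 92456), against 11233 and 17194 in all other cells. A median of 6316 and 6203.5 genes was seen per cell, but once every cell was thinned to 5000 UMIs the values were 1946 and 1948.5, against 2069 and 2027 in macrophages. The mitochondrial share was also higher than in other cells (medians of 5.24% and 5.30% against 1.17% and 2.83%). The libraries shared 23 barcodes and none of them met the rule. A further 2 control barcodes met it except for lying above the upper limits on UMIs or genes. A removal by doublet score, which takes out 0.8% of barcodes for every 1000 barcodes in a library, would have dropped 2 GA and 11 control cells.

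The osteoclast label was checked against marker lists. All 12 osteoclast markers were higher in the chosen cells than in the rest of each library, and their summed level was 17326 CPM (a gene's UMIs relative to all UMIs of the cells summed, so that 10000 CPM is 1%) in GA and 18405 in control, against 814 and 669 in all other cells. Cells of 2 related kinds were set beside them. Macrophages, defined by C1qa, C1qb and C1qc (696 GA, 1200 control), summed to 328 and 360 CPM on this list, and monocytes and their progenitors, defined by Ly6c2 (625 GA, 367 control), to 131 and 165. The list shares Acp5, Ocstamp, Dcstamp and Atp6v0d2 with the rule. Oscar is the most restricted marker outside it: 89.4% of all Oscar UMIs of the GA library and 91.2% of those of the control library lay in these cells. For Ctsk the shares were 33.1% and 38.6%, and for Mmp9 3.33% and 35.2%.

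Markers of other cell types lay below their level in the other cells, apart from those of macrophages in control and those of dendritic cells. The 10 macrophage markers summed to 3034 CPM in GA and 7469 in control, led by Apoe (1337 and 5542), with none at 0, against 3206 and 6318 in the other cells. The 8 monocyte markers summed to 366 and 481 CPM, led by Fn1 (323 and 389). Neutrophil markers summed to 531 and 207 CPM, against 95100 and 27325 in the other cells, and Cxcr2 was at 0 in GA and Ly6g at 0 in control. Mesenchymal and osteoblast markers summed to 251 and 359 CPM against 26798 and 40660. Dendritic cell markers were at 49.0 and 95.6 CPM against 41.9 and 62.2 in the other cells, led by Itgax (46.5 and 84.1 CPM, against 8.46 and 10.2 in macrophages), with Cd209a and Clec9a at 0 in both libraries and Flt3, Xcr1 and Ccr7 at 0 in GA. Endothelial and pericyte markers were at 48.3 and 72.7 CPM, and erythroid markers at 8.06 and 42.7 CPM. Lists for B cells, T and NK cells, mast cells and early progenitors all lay below 17 CPM.

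These cells were rarer in the GA library. They were 0.321% of GA cells (95% Clopper-Pearson interval 0.215 to 0.461) and 1.04% of control cells (0.829 to 1.28), a GA to control ratio of 0.309 (0.203 to 0.471). The rule asks for fixed numbers of UMIs, while the median cell within the limits held 11267 UMIs in GA and 17499 in control. The GA library was richer in neutrophils, which enter the denominator. Among cells under the limit on S100a8 and S100a9 (4254 GA, 6058 control), the shares were 0.682% (0.457 to 0.978) and 1.39% (1.11 to 1.71), a ratio of 0.492 (0.323 to 0.748). Macrophages were also a smaller share of the GA library (7.70% against 14.8%). Set against these macrophages, there were 4.17 chosen cells per 100 in GA and 7.00 per 100 in control, and the ratio of their shares among both kinds together was 0.611 (0.405 to 0.923). All these ratios lay below 1 and came closer to it as the denominator narrowed. The mice were pooled, so the spread between animals is unknown.

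**Figure D1:**
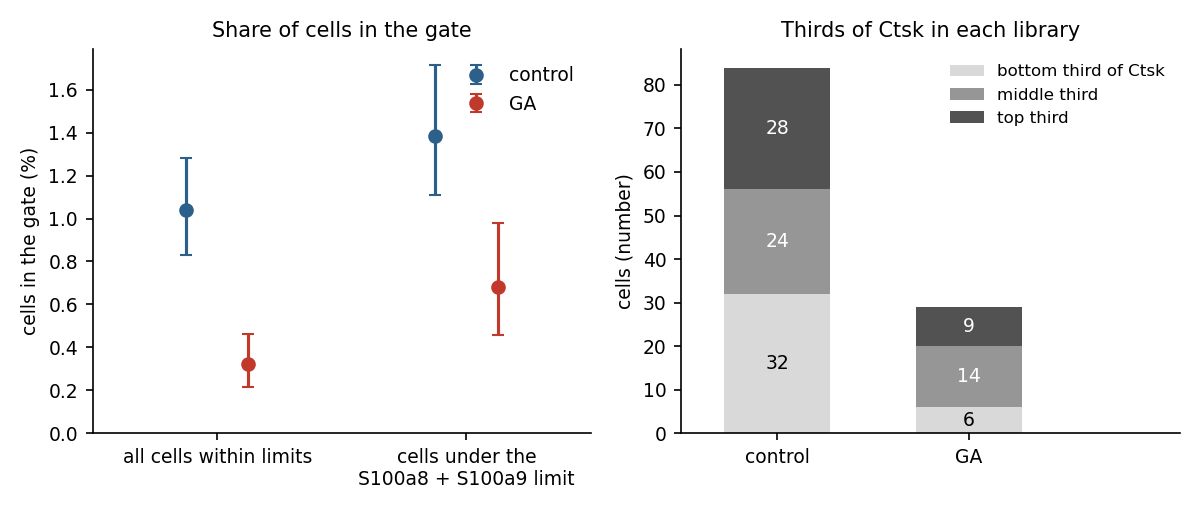
The left panel plots the percent of cells that met the rule in the GA and control libraries, over all cells within the limits and over cells under the S100 limit, with 95% Clopper-Pearson intervals of counting error. The right panel plots the number of these cells in each of the 3 groups by Ctsk level: 6, 14 and 9 in GA and 32, 24 and 28 in control, so that the low group held the largest part of the control cells and the smallest part of the GA cells.

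Control cells near the Acp5 threshold held little Ctsk and more C1qa. The 10 control cells with 20 to 24 Acp5 UMIs summed to 191 CPM of Ctsk and 920 CPM of C1qa. The 16 control cells just outside, with 15 to 19 Acp5 UMIs, summed to 61.3 and 1461 CPM. In GA only 1 cell lay in each of these ranges. On the fusion genes the boundary was sparser, with 4 control cells and no GA cell at 5 to 7 UMIs and 4 control cells and 1 GA cell at 3 to 4. Cells on both sides of the Acp5 threshold thus carried C1q transcripts, and most of them came from the control library.

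Within the 113 cells, Ctsk spanned the whole range from absent to abundant. It was 0 in the lowest GA cell, 4525 CPM in the median and 22918 in the highest, and 0, 4476 and 38385 CPM in control. To describe this range, the cells were ordered by Ctsk CPM and divided into 3 groups of near-equal size. These groups are stretches of a continuous scale and not cell types: 1 cell lay within 20% of the lower boundary and 17 within 20% of the upper one. The 38 Ctsk-low cells (6 GA, 32 control) ran from 0 to 308 CPM, the 38 Ctsk-mid cells (14 GA, 24 control) from 378 to 10595 and the 37 Ctsk-high cells (9 GA, 28 control) from 11029 to 38385. Ctsk-low cells were 20.7% of the GA and 38.1% of the control cells.

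The Ctsk-low cells went against the osteoclast label in most markers outside the rule, but not in Nfatc1. Oscar was seen in none of the 38, and 10 held no Ctsk UMI. Mmp9 was seen in 11. Nfatc1 was seen in 34, at 423 CPM in the GA and 151 CPM in the control cells, against 41.9 and 40.8 in macrophages. They met the fusion part of the rule mostly through Atp6v0d2, a proton pump subunit that macrophages can also express: 36 of 38 held at least 5 of its UMIs, and 26 held neither Dcstamp nor Ocstamp. C1qa, C1qb and C1qc reached 20 UMIs together in 19 of them (1 GA, 18 control), against 5 Ctsk-mid cells (3 GA, 2 control) and no Ctsk-high cell. The doublet score ranked 9 of its 13 removals here, 4 among Ctsk-mid and none among Ctsk-high cells. The part of doublets in these values was not tested. Results between libraries are therefore also given without the Ctsk-low cells, for 23 GA and 52 control cells. These made up 0.255% and 0.643% of the libraries, a ratio of 0.396 (0.243 to 0.647).

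Mmp9, Oscar and Itgb3, all outside the rule, were ordered much as Ctsk was from cell to cell. Mmp9, a gelatinase of migrating and resorbing osteoclasts, ran from 0 through a median of 139 to 12941 CPM over GA cells and from 0 through 130 to 20802 CPM over control cells. Its Spearman correlation with Ctsk over the 113 cells was 0.84, and that of Oscar was 0.81. Itgb3, the β3 chain of the integrin that seals the osteoclast to bone, gave 0.73 and Nfatc1 0.60. Acp5 and Ocstamp, which belong to the rule, gave 0.87 and 0.80, the latter 0.47 within GA and 0.87 within control. C1qb gave -0.63 and Mki67, a marker of cycling cells, -0.31. Within GA alone, Nfatc1 gave 0.23, C1qb -0.32 and Mki67 -0.08, against 0.67, -0.70 and -0.38 within control, so the pooled values of these genes were carried by the 84 control cells, while Mmp9 (0.83 and 0.85), Oscar (0.82 and 0.81) and Itgb3 (0.69 and 0.74) gave similar values within both. These correlations share the cells' depth and library and are given without a test. Irf8, a factor that holds back osteoclast formation, gave -0.71 over control cells and -0.07 over GA cells, and differences between the libraries were not tested.

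**Figure D2:**
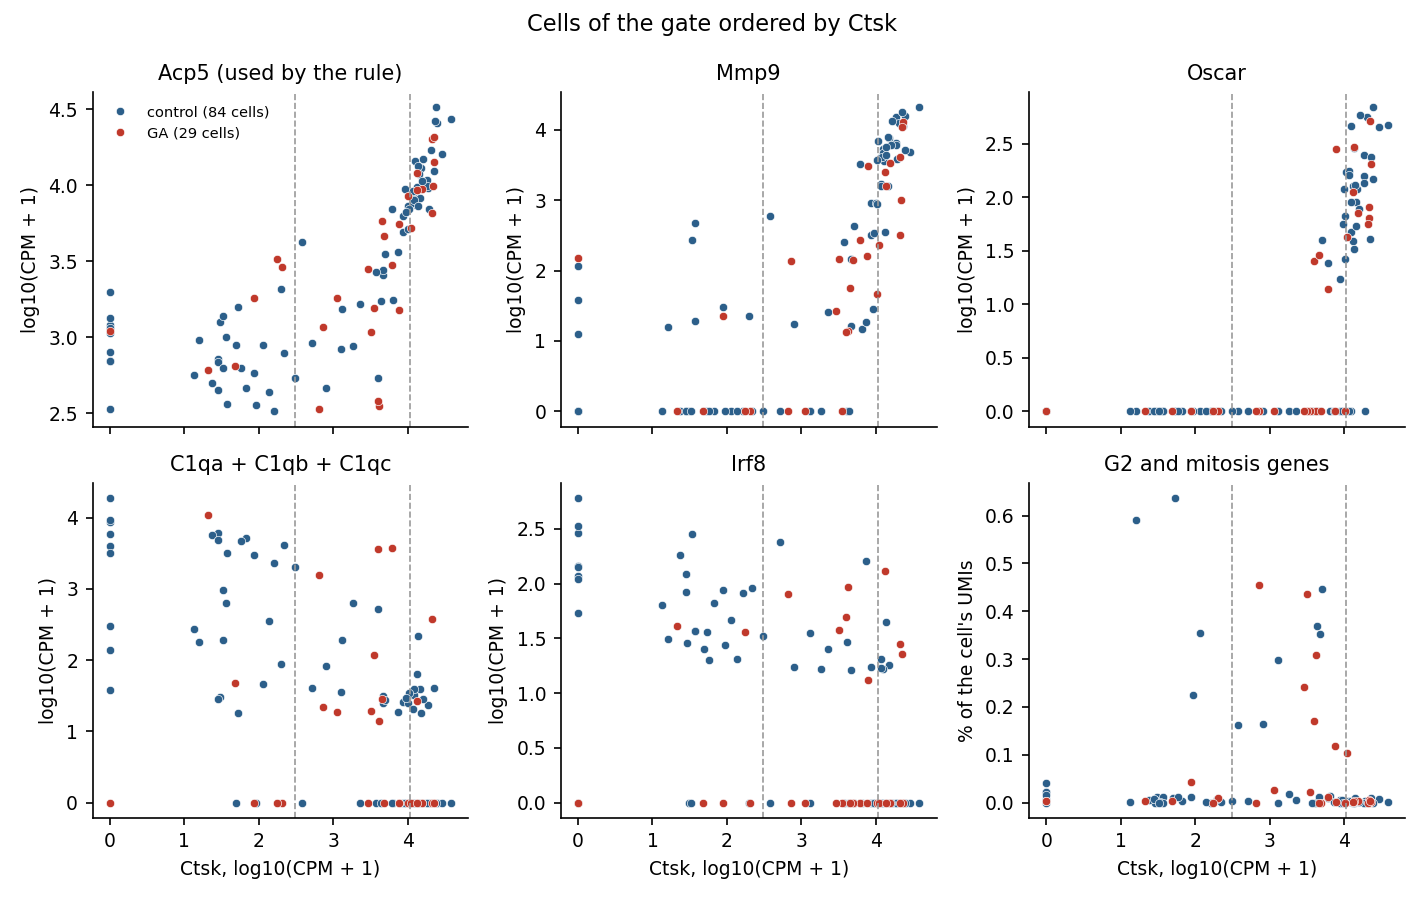
Each point is 1 of the 113 cells, coloured by library, with Ctsk on the horizontal axis as log10(CPM + 1). The vertical axes show Acp5, Mmp9, Oscar, the sum of C1qa, C1qb and C1qc, and Irf8 on the same log scale, and the G2 and mitosis genes as a percent of UMIs. Dashed lines mark the boundaries of the 3 Ctsk groups, and Oscar lies at 0 in every cell left of the lower one while C1q lies mostly there.

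Oscar was absent below the lower boundary and frequent above the upper one. It was seen in 12 of 38 Ctsk-mid cells and 34 of 37 Ctsk-high cells, where it ran from 41.7 through 80.5 to 520 CPM over the GA cells and from 0 through 132 to 697 CPM over the control cells. The libraries overlapped widely. Over all chosen cells, 13 of 29 GA (44.8%) and 33 of 84 control cells (39.3%) held an Oscar UMI, against 0 of 696 and 2 of 1200 (0.167%) macrophages, whose median depths were 20651.5 and 22590.5 UMIs. After thinning to 5000 UMIs the shares were 13.8% and 17.9%, against none of the macrophages. Ctsk was less restricted, since 28.7% of GA and 35.6% of control macrophages held at least 1 Ctsk UMI (10.4% and 13.4% after thinning), against 96.6% and 89.3% of the chosen cells (86.2% and 72.6% after thinning).

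The acid-secreting machinery was higher in Ctsk-high cells as a group. Of 6410 genes with at least 100 UMIs, 12.2% were more than 2-fold higher in Ctsk-high than in Ctsk-low cells and 13.6% more than 2-fold lower. The Ctsk-low cells are 32 control and 6 GA cells, so the values pooled over libraries lean on control, and each count is followed by the number that also went beyond 2-fold in the same direction within each library. No minimum of UMIs was set for the counts within libraries, and the 6 GA cells make them weak there. Of the 22 acid secretion genes, 21 were higher and 1 lower, all of them within both libraries, with a median log2 ratio of 1.48, and their summed level was 7092, 11538 and 21246 CPM in Ctsk-low, Ctsk-mid and Ctsk-high cells. Atp6v0d2 is one of the 21 and belongs to the rule. Tcirg1, the osteoclast a3 subunit of the proton pump, went from 289 to 406 to 660 CPM. Atp6v0a1, which encodes an alternative a subunit, was the exception and went from 47.7 to 19.8 to 5.56 CPM. Slc4a2, the bicarbonate exchanger that balances proton secretion, went from 29.4 to 105 to 270 CPM, and Snx10, a sorting nexin needed for the ruffled border, from 115 to 281 to 1079 CPM. The chloride channel Clcn7 was at 68.8, 57.0 and 190 CPM and its partner Ostm1 at 38.1 CPM in Ctsk-mid and 90.5 CPM in Ctsk-high cells. Summed over the list, the Ctsk-high cells of the libraries were close, at 21836 CPM in GA and 21050 in control.

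Matrix-degrading enzymes went in both directions. Ctsk itself set the order and went from 67.7 to 4884 to 17000 CPM. Acp5, though it chose the cells, still went from 870 to 3106 to 12326 CPM, and Mmp9 from 30.5 to 600 to 6456 CPM. The lysosomal proteases of macrophages ran the other way. Ctsb went from 4240 to 1460 to 925 CPM, Ctsd from 4773 to 1428 to 939 and Lgmn from 678 to 241 to 168. Of the 11 genes, 4 were higher (Ctsk, Acp5, Mmp9 and the membrane protease Mmp14), 4 lower and 3 within 2-fold, with a median log2 ratio of 0.29. Ctsk defined the groups and Acp5 belongs to the rule, so only Mmp9 and Mmp14 were higher independently of the choice. All 8 went beyond 2-fold within both libraries.

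Fusion genes also went in both directions. Ocstamp went from 8.32 to 106 to 298 CPM and Dcstamp from 74.4 to 111 to 261 CPM, and both were part of the rule. Of the 13 list genes measured, 5 were higher, 3 lower (Cd9, Adam8 and Trem2) and 5 within 2-fold, with a median of -0.20. Atp6v0d2 belongs to the rule as well, so of the 5 higher only Itgb3 and Sh3pxd2a were free of the choice. Within GA, all but Sh3pxd2a of the higher and all but Cd9 of the lower genes went beyond 2-fold, and within control all did. Trem2, a microglial and macrophage receptor that signals through Tyrobp, went from 749 to 361 to 130 CPM, whereas Tyrobp itself stayed at 2369, 1515 and 2172 CPM. Sh3pxd2a, which encodes the podosome scaffold TKS5, was at 33.9, 187 and 167 CPM in control but at 129, 201 and 124 CPM in GA. Siglec15, a costimulatory lectin of osteoclasts, fell under 100 UMIs and went from 0.555 to 5.18 to 30.9 CPM.

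Genes of RANK and CSF1 receptor signalling went in both directions along the scale. Of 22 genes for RANK and costimulation, 5 were higher and 5 lower, with a median of -0.28. Within control all 10 went beyond 2-fold, and within GA 4 of the higher and 3 of the lower. Tnfrsf11a went from 112 to 179 to 324 CPM and Nfatc1 from 188 to 657 to 792 CPM. The difference in Nfatc1 was that of control (151, 713 and 879 CPM), since in GA it was at 423, 577 and 529 CPM. Ppp3ca, a catalytic subunit of calcineurin, went from 117 to 173 to 315 CPM. Nfkb1 was at 702, 263 and 193 CPM in control but at 195, 282 and 266 CPM in GA. Of the 10 CSF1 receptor genes, Src was higher and 4 were lower, with a median of -0.52, and within GA Src and 2 of the 4 stayed within 2-fold, and Csf1r itself was at 401, 412 and 751 CPM. Per cell, Csf1r ran from 125 through 459 to 1201 CPM in GA and from 0 through 504 to 1615 CPM in control, with complete overlap. Tnfrsf11a ran through a median of 184 to 758 CPM and through a median of 158 to 666 CPM. Calcr, the calcitonin receptor of mature osteoclasts, gave 26 UMIs in 1 GA cell and 14 UMIs in 5 control cells, all of them Ctsk-high.

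Transcription factors differed by role. Of 14 measured, 5 were higher (Nfatc1, Prdm1, Jdp2, Esrra and Ppargc1b) and 3 lower, among them Irf8 and Hivep3. Within GA, Nfatc1 and Jdp2 were not beyond 2-fold higher and Irf8 was not lower, and Jdp2 went the other way (954, 711 and 671 CPM, against 260, 620 and 741 in control). Prdm1 encodes BLIMP1, which represses the inhibitors of osteoclast formation, and went from 45.5 to 93.7 to 185 CPM. Irf8, one of those inhibitors, went from 89.7 to 19.3 to 4.04 CPM in control but was at 12.4, 21.6 and 20.3 CPM in GA. The lineage factor Spi1 (PU.1) was at 421, 511 and 685 CPM and Mitf at 170, 169 and 197 CPM, both within 2-fold. The wider list of 14 negative regulators measured had none higher and 10 lower, with a median of -1.58, but only 3 of the 10 were beyond 2-fold lower within GA. Among them Lilrb4a, an inhibitory receptor, went from 112 to 107 to 14.2 CPM in GA and from 229 to 46.6 to 7.41 CPM in control. Socs3 went from 159 to 36.9 to 10.1 CPM in control but was at 20.7, 61.4 and 18.2 CPM in GA.

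Most genes of energy supply and a smaller part of those of attachment were more than 2-fold higher in Ctsk-high cells. Of 16 genes of mitochondria and iron uptake, 14 were higher and none lower (12 within GA, 14 within control), with a median of 1.67, and the list summed to 1813, 4395 and 8454 CPM. Ppargc1b, the coactivator PGC-1β that drives mitochondrial biogenesis in osteoclasts, went from 17.8 to 119 to 297 CPM. Ckb, the brain-type creatine kinase, went from 83.2 to 459 to 3257 CPM and Tfrc, the transferrin receptor, from 50.5 to 209 to 276 CPM. Among mitochondrial enzymes, Idh3a was at 31.6, 153 and 168 CPM and Sdha at 112, 254 and 409 CPM. The share of transcripts from the mitochondrial genome moved with this group, with medians of 4.06%, 4.96% and 9.75% in GA and 3.66%, 4.87% and 9.23% in control, and its part in these values was not tested. Of 20 attachment and actin genes, 8 were higher and none lower (6 within GA, 8 within control), with a median of 0.48. Itgb3 went from 3.33 to 30.6 to 345 CPM, while its partner Itgav was at 544, 607 and 861 CPM. Src, the kinase needed for the ruffled border, was at 44.2, 97.2 and 125 CPM in control and at 99.6, 78.5 and 112 CPM in GA, and Cttn (cortactin) at 4.99, 12.7 and 40.5 CPM.

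Signals that osteoclasts send to other cells followed no single direction. Of 13 measured, 3 were higher in Ctsk-high than in Ctsk-low cells, 7 were lower and 3 lay within 2-fold, with a median of -1.22. Within GA only 1 of the higher and 4 of the lower went beyond 2-fold, and within control all did. The higher ones were Lif, a cytokine that acts on osteoblasts (8.88, 29.2 and 48.6 CPM), Pdgfb, which recruits mesenchymal cells and pericytes (51.6, 60.2 and 122 CPM), and Cthrc1 (7.21, 3.77 and 45.0 CPM, but only 8.11 CPM in Ctsk-high cells of GA). Sema4d, a semaphorin that restrains osteoblasts, was at 167, 165 and 261 CPM. Among the lower ones were Tgfb1 (258, 74.8 and 65.2 CPM), Vegfa (343, 233 and 147 CPM), Il1rn, the interleukin-1 receptor antagonist (308, 81.9 and 15.7 CPM), and the chemokine Ccl6 (8.30, 329 and 4.05 CPM in GA, where the ends rest on very few UMIs, and 231, 30.5 and 12.1 CPM in control). Its relative Ccl9, known from osteoclasts, was at 757, 625 and 555 CPM. Of 13 genes of glycolysis and hypoxia, none was higher and 4 were lower, 1 of them within GA.

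**Figure D3:**
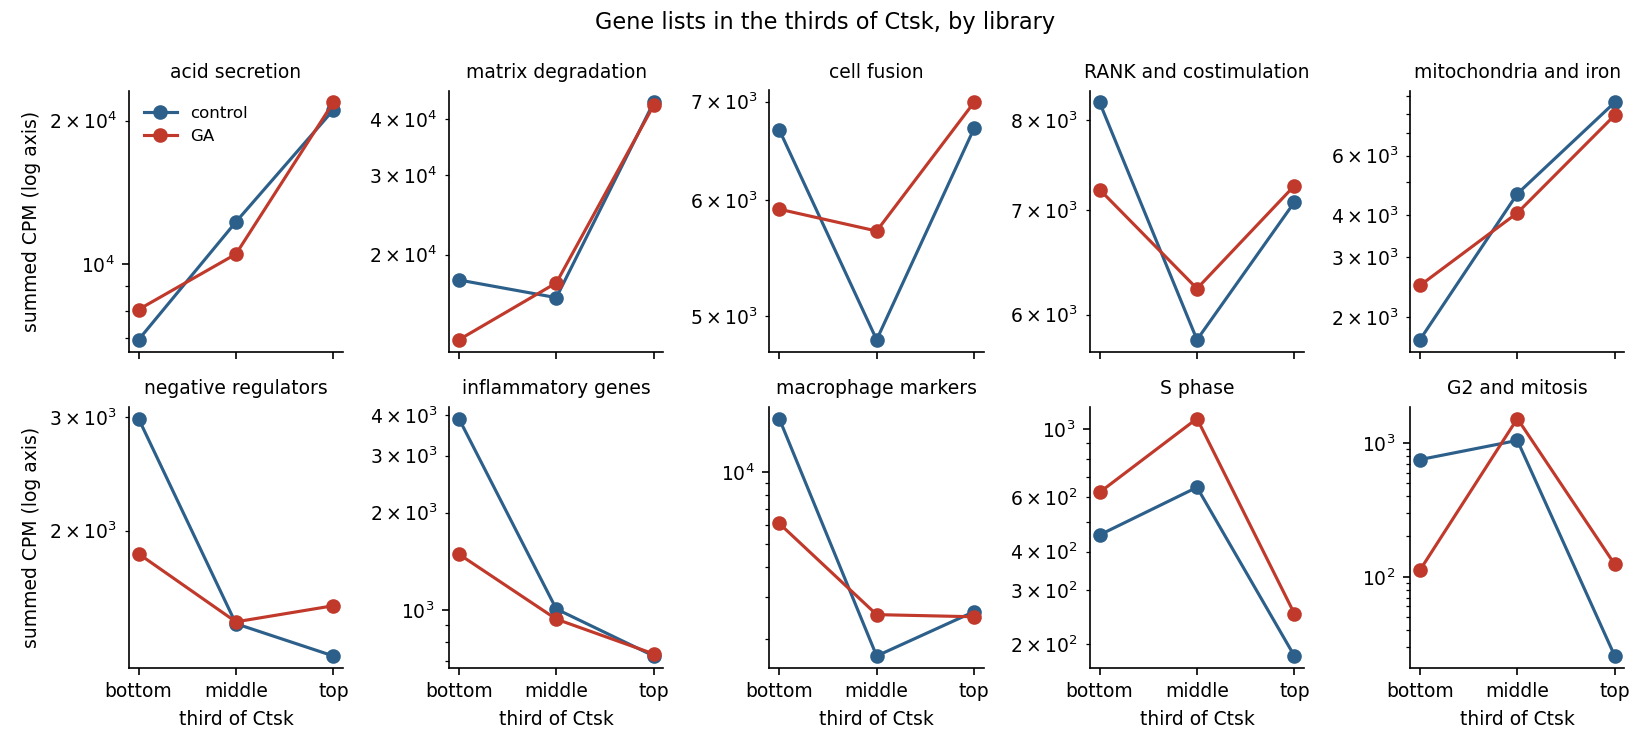
Summed CPM of 10 gene lists on a log axis in the Ctsk-low, Ctsk-mid and Ctsk-high cells of each library, 1 point per group and library. Acid secretion and mitochondria climb in both libraries, the G2 and mitosis genes peak in the middle group in GA (1519 CPM) and in control (1043 CPM), and macrophage markers of the low group differ between the libraries (6075 CPM in GA, 16714 in control).

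Beyond the lists, the genes with the largest differences between Ctsk-high and Ctsk-low cells gave each end its own profile. At the high end stood Mt3, a metallothionein (0.555, 121 and 910 CPM), Itga2, the α2 integrin chain that binds collagen (0.555, 32.0 and 83.0 CPM), Mst1r, a receptor tyrosine kinase (0, 22.1 and 122 CPM), Dgki, a diacylglycerol kinase (5.55, 69.7 and 515 CPM), and Nmb, which encodes the neuropeptide neuromedin B (0.555, 3.77 and 86.0 CPM). Mt3 was at 697 CPM in Ctsk-high cells of GA and at 980 CPM in those of control. At the low end stood Cybb, the catalytic subunit of the phagocyte NADPH oxidase (970, 253 and 2.02 CPM), Lyz2, macrophage lysozyme (18678, 3542 and 56.1 CPM), Il7r (141, 44.2 and 0.506 CPM) and Gdf15 (351, 25.9 and 2.02 CPM). These low-end genes came mostly from control cells. Within Ctsk-low cells, Lyz2 was at 3826 CPM in GA and 20971 in control, Cybb at 95.4 and 1105 CPM and Gdf15 at 4.15 and 405 CPM. Spp1 (osteopontin), a matrix protein that osteoclasts and macrophages both secrete, went from 10208 to 4487 to 877 CPM. A single Ctsk-low GA cell gave 3921 of its 10366 GA UMIs. From cell to cell its Spearman correlation with Ctsk was only -0.22 (0.09 within GA, -0.31 within control). The 11 inflammatory genes measured had none higher and 10 lower, with a median of -3.58, and 6 of the 10 were beyond 2-fold lower within GA.

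Set against the C1q macrophages of the same library, the chosen cells were higher in genes of acid secretion and mitochondria and lower in inhibitors of osteoclast formation and in inflammatory genes. Of 9357 genes tested, 7.00% were more than 2-fold higher in both libraries and 14.2% more than 2-fold lower in both, and the median gene lay at -0.06 in GA and -0.03 in control on the log2 scale. The acid secretion list had 13 of 22 higher, among them the rule gene Atp6v0d2, and 1 lower (Atp6v0a1), with a median of 1.37, and mitochondria and iron had 13 of 16 higher and none lower, with a median of 1.65. Of 17 negative regulators, none was higher and 11 were lower, with a median of -1.53. Inflammatory genes had 10 of 14 lower and interferon response genes 10 of 13 lower, with medians of -2.98 and -2.44. These macrophages were defined by C1q and the chosen cells by osteoclast genes, so the direction of each marker list was set by the choice.

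Several of the genes that separated the chosen cells from macrophages most were in neither rule. Slc9b2, a sodium-proton exchanger of osteoclast mitochondria and endosomes, was at 505 CPM in GA and 496 in control against 0.631 and 1.59 in macrophages (log2 ratios of 9.64 and 8.28). Nyap2, a phosphoinositide 3-kinase adaptor known mainly from neurons, was at 146 and 71.6 CPM against 0.0631 and 0.133 (11.17 and 9.08). It was seen in 13 GA and 29 control cells. Rufy4, an autophagy adaptor, was at 104 and 93.5 CPM against 0.821 and 0.332, and the cytochrome P450 gene Cyp2s1 at 79.3 and 73.0 CPM against 0.189 and 0.531. Oscar was at 78.7 and 77.4 CPM against 0 and 0.0663 in macrophages. Lower in the chosen cells were Cd163, the haemoglobin scavenger receptor (0.620 and 0.233 CPM against 46.3 and 16.8), and the chemokines Ccl2 (28.5 and 24.7 against 1033 and 698) and Ccl8 (11.2 and 4.43 against 681 and 279). Of the RANK genes only Oscar and Nfatc1 were higher in both libraries, the latter at 539 and 566 CPM against 41.9 and 40.8. Tnfrsf11a was at 247 and 192 CPM against 106 and 105, above 2-fold in GA alone (1.22 and 0.87).

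**Figure D4:**
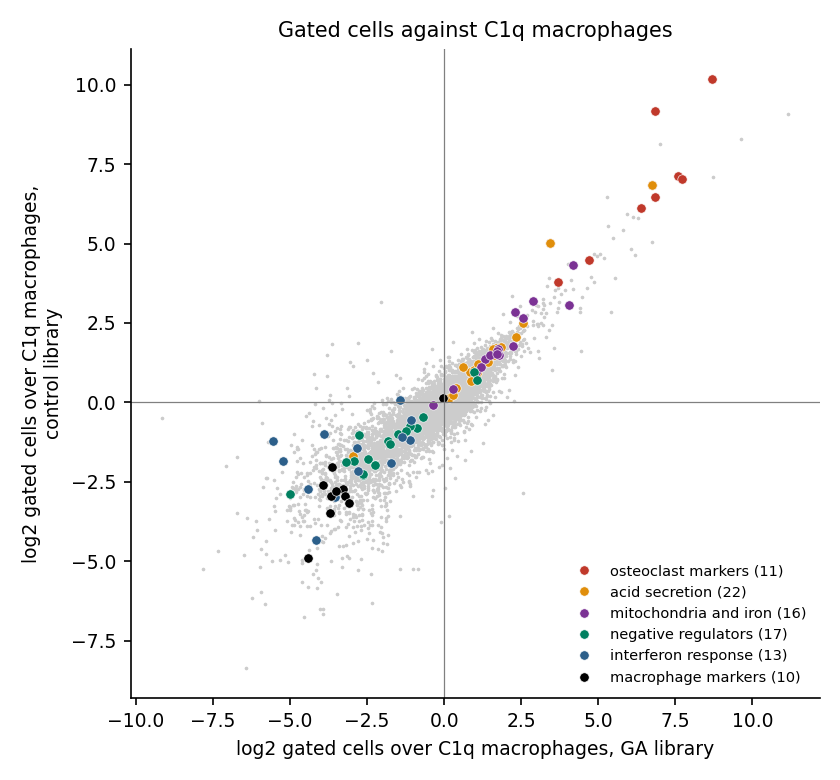
Log2 ratio of each gene in the chosen cells over C1q macrophages, GA on the horizontal and control on the vertical axis, for all 9357 genes (grey) and 6 gene lists (colours). Oscar, Ctsk and Mmp9 lie far to the upper right and negative regulators mostly to the lower left, and points near the diagonal have similar ratios in both libraries.

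Against the Ly6c2 cells, 8.07% of 8897 genes were more than 2-fold higher in both libraries and 16.6% lower, with the median gene at -0.24 and -0.22. Acid secretion had 20 of 22 higher and none lower (median 2.24), and matrix degradation 9 of 11 higher, among them Ctsb, Ctsd, Ctsl and Lgmn, which were not higher against macrophages. Cell fusion had 7 of 14 higher and 1 lower. These counts include the rule genes Acp5, Dcstamp, Ocstamp and Atp6v0d2, whose excess was set by the choice. S phase genes had 12 of 16 lower and G2 and mitosis genes 14 of 16 lower. The Ly6c2 cells also carried early progenitor markers (6647 and 4268 CPM, against 16.7 and 6.76 in the chosen cells) and granule genes such as Prtn3 (2594 and 1415 CPM), so they hold progenitors besides monocytes, and their part in the cell cycle counts was not tested.

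Between GA and control, the genes of resorption and fusion lay within 2-fold over all chosen cells, as did most of the genes measured. Over all chosen cells, 0.593% of 6410 genes were more than 2-fold higher in GA and 3.20% more than 2-fold lower, and the median gene lay at 0.02. These counts, 38 and 205, depend on the setting: 114 genes were higher without predicted doublets, and 435 were higher and 744 lower after thinning to 5000 UMIs. None of the genes measured for acid secretion (22), matrix degradation (11), cell fusion (13), RANK and costimulation (22), lineage transcription factors (14), CSF1 receptor signalling (10), attachment and actin (20) or mitochondria and iron (16) went beyond 2-fold, and their medians lay between -0.08 and 0.17. Ctsk was at 7762 CPM in GA and 7361 in control (log2 0.08, counting interval 0.05 to 0.11) and Acp5 at 5362 and 5567. Mmp9 was at 1587 and 2688 CPM (-0.76, -0.82 to -0.70) and Dcstamp at 101 and 168 CPM (-0.74). Car2, carbonic anhydrase II, which supplies the protons, was at 53.9 and 97.7 CPM (-0.86), all within 2-fold, as was Atp6v0a1 (-0.92). Acp5 and Dcstamp belong to the rule and are given as a description. Per cell, Acp5 ran from 334 through 2957 to 20642 CPM in GA and from 323 through 2622 to 32541 CPM in control, and Dcstamp from 0 through 38.3 to 492 and from 0 through 81.1 to 1078 CPM. These values include the Ctsk-low cells, without which they differ as given further on.

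Several of the genes lower in GA had their highest level in the Ctsk-low cells, of which control had more. The complement gene C3 gave 1 UMI in GA and 179 UMIs in 27 control cells (log2 -6.07, -11.38 to -3.58), and its level was 82.1, 13.6 and 1.52 CPM in Ctsk-low, Ctsk-mid and Ctsk-high cells of both libraries together. By library, C3 was at 0 CPM in GA and 94.8 in control within Ctsk-low cells, and at 0 and 23.3 CPM within Ctsk-mid cells. The part of the unequal numbers of Ctsk-low cells in these differences was not tested. Flrt3 gave 1 UMI against 140 in 27 cells, but with lower minimums in the rule its log2 ratio was 0.010, or almost no difference. Haptoglobin (Hp, 10 against 598 UMIs), the protease inhibitor Slpi (9 against 468) and Inhba (3 against 151) were each seen in 14 to 21 control cells. Without the Ctsk-low cells, where each of these genes fell under 100 UMIs, C3 was at -3.96 and Flrt3 at -3.92. In both, 22 of the control UMIs (31 and 30) came from 1 cell. There Hp was at -0.08, Slpi at -1.22 and Inhba at -1.59. Csf1 was lower too (2 against 165 UMIs), but 102 of the control UMIs came from 1 cell. Of the 11 inflammatory genes, 5 were lower (Il1b, Cxcl2, Cxcl3, Ccl5 and Nlrp3) and none higher, with a median of -0.96. For Cxcl3, 265 of the 425 control UMIs came from 1 cell. Without the 5 cells of each library with most UMIs, Il1b was at 0.42. Ccl5 was then at 0.29, but it gave no UMI in GA (158 in control), so that value rests on the prior count. Without the Ctsk-low cells, 3 inflammatory genes could be measured and none went beyond 2-fold, among them Cxcl2 at 0.0037. Under 100 UMIs there, Il1b was at -2.33 (8 against 80 UMIs, 43 of the 80 from 1 cell). Cxcl3 was at -1.47 (2 against 11 UMIs) and Nlrp3 at -0.70 (9 against 29), while Ccl5 gave no GA UMI. Of 13 osteoclast-derived signals measured, 4 were lower (C3, Il1rn, Cthrc1 and Sphk1) and none higher. Cthrc1, a secreted factor of resorbing osteoclasts, gave 8 against 102 UMIs (-2.26), with 46 of the control UMIs from 1 cell. Its ratio was 0.12 with cells thinned to 5000 UMIs, but thinning leaves very few of the 8 GA UMIs, so that value decides nothing. Il1rn was at 0.31 with lower minimums in the rule. Of 14 negative regulators only Pilra was lower and none was higher, and Pilra was at 0.19 with lower minimums and at 0.048 without the Ctsk-low cells (13 against 25 UMIs).

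Genes higher in GA were fewer, and for some of them 1 cell gave a large part of the UMIs. Folr2, a folate receptor of resident macrophages, was at 66.9 CPM in GA and 11.2 in control (log2 2.58). Ifi27l2a, an interferon-inducible gene, was at 1559 and 369 CPM (2.08), although 1177 of its 2516 GA UMIs came from 1 cell. Rrm2, a ribonucleotide reductase subunit used in S phase, was at 53.9 and 13.1 CPM (2.05), and Pgf, placental growth factor, at 91.7 and 20.7 CPM in 10 and 16 cells (2.14). Of 7 interferon response genes measured, Ifitm3 was higher and Rsad2 lower, with a median of 0.59, and Rsad2 was at 0.64 with lower minimums in the rule. The glycerol kinase gene Gk had 66 of its 86 GA UMIs in 1 cell. S100a9 was at 209 and 75.5 CPM (1.47), but the rule limits it. Other neutrophil transcripts moved with it, at 99.8 and 36.1 CPM in the chosen cells and 16033 and 5445 CPM in the whole libraries. With background transcripts subtracted the ratio of S100a9 turned to -1.09.

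Without the Ctsk-low cells the balance turned. Of 5216 genes, 1.84% were then more than 2-fold higher in GA and 0.652% lower, with the median gene at -0.01. Folr2 was higher here too (96 against 11 UMIs, log2 4.12), in 12 GA and 8 control cells, with 46 of the 96 from 1 cell. Other genes among the highest in GA were the platelet factor gene Pf4 (3.13), Alox5ap, which serves leukotriene synthesis (2.73), Fn1 (2.33) and Lyz2 (2.27). Lyz2 had 3368 of its 5402 GA UMIs in 1 cell, Pf4 82 of 132 and Fn1 334 of 516. The genes lowest in GA were Angpt2 (angiopoietin 2, 9 against 115 UMIs, -2.68, in 7 and 34 cells), the cystine transporter gene Slc7a11 (-2.39, with 169 of 230 control UMIs in 1 cell) and the proteoglycan gene Bgn (-2.37). Of the osteoclast markers, 2 of 11 were lower in GA, Mmp9 (-1.18, -1.24 to -1.12) and Car2 (-1.05, -1.40 to -0.70), and the 11 markers had a median of -0.46. This median is a description, since Acp5, Ocstamp, Dcstamp and Atp6v0d2 belong to the rule and Ctsk set which cells were left. Of the markers free of both, Nfatc1 was at -0.52, Itgb3 at -0.41 (132 of its 205 GA UMIs from 1 cell), Oscar at -0.39 and Tcirg1 at -0.24. Macrophage markers moved the other way. C1qa gave 238 UMIs in 6 GA cells against 16 UMIs in 11 control cells (log2 4.89), with 129 of the 238 from 1 cell, and C1qc was at 3.42 and C1qb at 2.79. Ccl6 was at 3.37 (195 of 291 GA UMIs from 1 cell) and the protease gene Ctsl at 1.98 (1521 of 2739 from 1 cell). The part of these few cells in the lower osteoclast markers was not tested. Of these 75 cells, the Ctsk-high group held 9 of 23 in GA and 28 of 52 in control, and its summed osteoclast markers were 39025 and 40806 CPM. Within it, Mmp9 was at 4540 CPM in GA and 7093 in control.

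**Figure D5:**
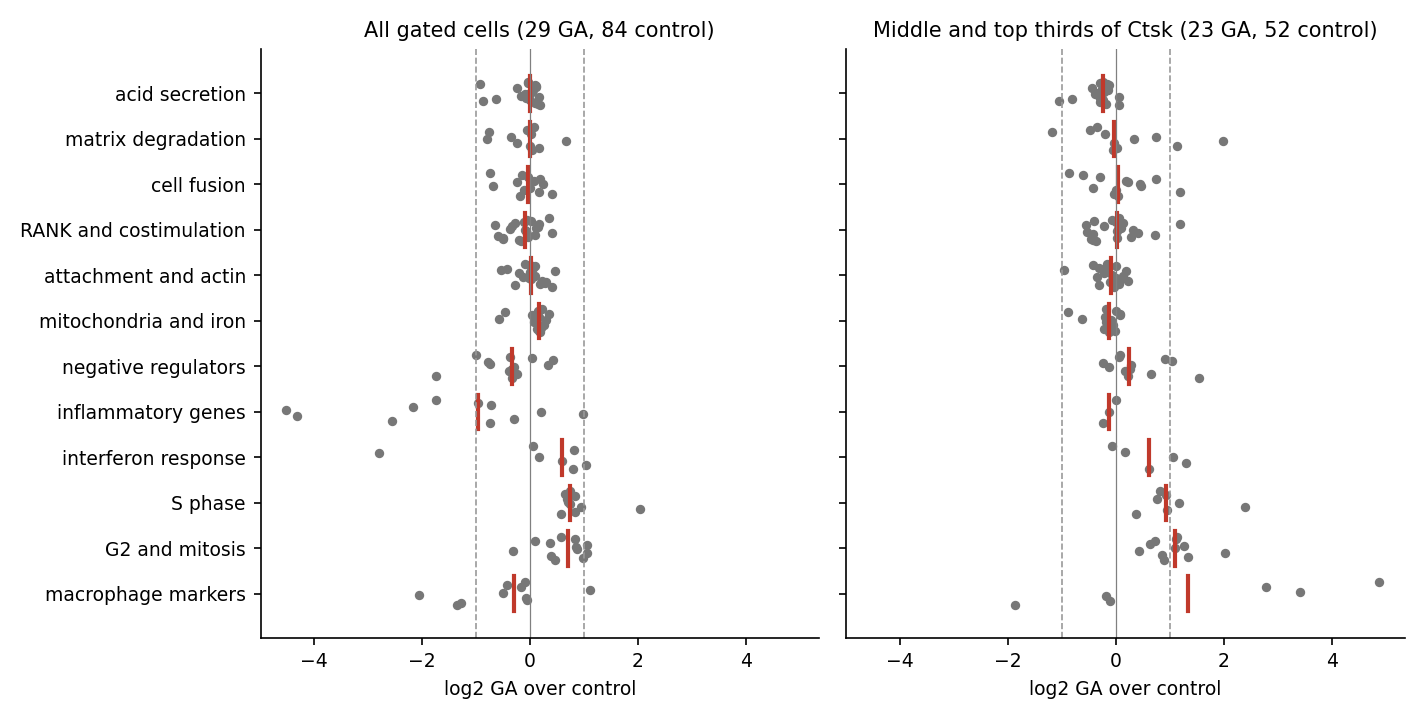
Log2 ratio of GA over control for the genes of each list, with all chosen cells (29 GA, 84 control) and without the Ctsk-low cells (23 GA, 52 control). Points are genes with at least 100 UMIs, red bars medians and dashed lines 2-fold, and the inflammatory list, low at a median of -0.96 over all chosen cells, keeps only 3 genes without the Ctsk-low cells.

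Some of the chosen cells carried transcripts of division. A cell was counted as dividing when the G2 and mitosis genes made up at least 0.1% of its UMIs. That was so for 7 of 29 GA cells (24.1%, 10.3 to 43.5) and 10 of 84 control cells (11.9%, 5.86 to 20.8), and after thinning for 17.2% and 11.9%, so the intervals of the libraries overlapped. Among macrophages the shares were 7.04% and 4.25%. Of the 17 cells, 12 were Ctsk-mid, 4 Ctsk-low and 1 Ctsk-high. Dividing cells carried less of the resorption genes than the other chosen cells, with Ctsk at 4172 against 9304 CPM in GA and 1951 against 8313 in control, and Mmp9 at 90.8 against 2230 and 115 against 3140 CPM. Dcstamp was also lower in them (35.1 against 129 and 43.6 against 190 CPM). In the Ctsk-high cells the 16 G2 and mitosis genes summed to 124 CPM in GA and 25.6 in control, but the GA value came mostly from 1 cell, in which they made up 0.104% of 47965 UMIs and whose Ctsk, at 11029 CPM, was the lowest of the group. All 10 S phase genes measured lay above 0 in GA over control, as did 52.0% of all genes, with a median of 0.75, and the median of 12 G2 and mitosis genes was 0.71. Without the Ctsk-low cells these medians were 0.93 and 1.11. In GA 2 of the cells lay close to the limit used to count division.

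Of the neurotrophin and hedgehog genes read in these cells, several gave no UMI. Ntrk3, Ngfr and Bdnf gave no UMI in the 1613562 GA and 4290304 control UMIs of the chosen cells. Ntrk2 gave 1 UMI, in control. Of the hedgehog pathway, Gli1, Gli2 and Hhip gave no UMI, Smo gave 1 and 8 UMIs and Ptch1 11 and 34. A count of 0 allows up to 3 UMIs, so lower levels were not detectable at this depth.

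The signals that make osteoclasts were read in the collagen-expressing mesenchymal cells of the same libraries (1075 GA, 2060 control). These cells were not divided by kind, and the paper reports more osteoblasts and fewer fibroblastic progenitors with GA. The part of such a shift in the values below was not tested. Tnfsf11, which encodes RANK ligand, was lower in GA, at 16.5 against 38.2 CPM (log2 -1.21, -1.31 to -1.10), from 916 and 4286 UMIs. Its decoy receptor Tnfrsf11b (osteoprotegerin) was higher, at 44.7 against 28.9 CPM (0.63, 0.55 to 0.71). The survival factors differed less, with Csf1 at 69.1 and 55.4 CPM (0.32) and Il34 at a log2 ratio of 0.18. Sema3a, a semaphorin that restrains osteoclasts, was at 30.7 and 42.0 CPM and Wnt5a at 17.5 and 19.3 CPM. The chosen cells themselves gave 0 and 1 UMI of Tnfsf11. The signals did not all run one way: Tnfsf11 was lower and Tnfrsf11b higher in GA, but Csf1 and Il34 were higher and Sema3a lower. Their part in the lower share of chosen cells in GA was not tested.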

How the data were processed

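Single cells of 2 libraries, 1 per condition, were analysed. The authors deposited UMI counts per gene and barcode from Cell Ranger, aligned to mm10. The file headers give version 7.0.1. The sources differ on the kit and on the dose and length of GA treatment, and the values used here are those of the labels. No column of other samples was present.

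Within each library, the counts of all cells of one kind were added together and scaled to CPM (Python 3.11.15, numpy 2.4.6, scipy 1.17.1, pandas 2.3.3, scanpy 1.11.5). Log2 ratios carry exact conditional binomial 95% intervals, shares Clopper-Pearson intervals and share ratios log-normal intervals, all for counting error only. A gene counts as higher or lower beyond 2-fold, among genes with at least 100 UMIs, which stands in for a test. A ratio to a class at 0 UMIs rests on a prior count and is not a bound.

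The cells and gene lists were chosen with earlier results of these data known. Named genes are those of the lists and, in each comparison, the 10 highest and 10 lowest log2 ratios, with UMIs in at least 10 cells of the higher library between GA and control. The genes named without the Ctsk-low cells follow the same rule. Scrublet marked 0 GA and 32 control barcodes (0.367%), which is too few to have worked, so no doublets were removed, and removal by score rank was kept as an alternative. Cells were thinned to 5000 UMIs to compare shares across depths. Steps were tested on simulated data. Alternatives changed the rule's minimums, the limits on cells, the gene filter, the scaling, the background and the cells left out. Some results are not reported here.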

Additional observations from a re-analysis of the deposited data

How the results depend on the processing

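No paired analysis was possible because each condition had 1 library. The share ratio of 0.309 ranged from 0.301 to 0.492 over 12 alternatives and reached 0.492 with cells under the S100 limit as denominator, and with chosen cells and C1q macrophages as the denominator it was 0.611. The number of genes higher in GA, 38, was 96 with at least 50 UMIs per gene, 13 with at least 200, 435 with cells thinned to 5000 UMIs, 114 without predicted doublets and 191 over the same 6410 genes without the Ctsk-low cells. The number lower in GA, 205, was 352, 118 and 744 under the first 3 of these and 80 without the Ctsk-low cells. The number lower than in macrophages, 1329, was 883 after thinning. Thinning leaves fewer UMIs per gene, and the causes of the other shifts were not tested. Log2 ratios of GA over control turned direction in 21 cases. Without the limits on S100a8, S100a9, Bglap and Bglap2, Camp was at -1.05, S100a8 at -0.73 and S100a9 at -0.53, and with background subtracted S100a8 was at -3.65 and S100a9 at -1.09. Without the 5 cells of each library with most UMIs, Ccnb1 was at -0.041, Ghr at -0.37 and Il1b at 0.42. Ccl5, counted among the 21, was at 0.29 there, but it gave no UMI in GA. Its change of sign therefore rests on the prior count and is no turn in the data. Cenpe was at -1.11 without dividing cells. Cthrc1 was at 0.12 after thinning, which leaves very few of its GA UMIs, so its change of sign decides nothing. With lower minimums in the rule, Cxcl2 was at 0.018, Flrt3 at 0.010, Il1rn at 0.31, Pilra at 0.19 and Rsad2 at 0.64, and with higher ones F13a1 at 0.54. Without the Ctsk-low cells, an alternative chosen after seeing the data, Cxcl2 was at 0.0037, F13a1 at 1.94, Mertk at 2.48 and Pilra at 0.048. All of these but Cxcl2 fell under 100 UMIs there. F13a1 gave 27 against 14 UMIs (20 of the 27 from 1 GA cell), Mertk 14 against 5 and Pilra 13 against 25, so their changes of sign decide little. Of the other ratios, 538 moved by less than their counting interval and 181 by more without turning. The causes of these changes were not tested. Depth limits genes under 100 UMIs, and 29 GA cells limit every value of that library.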
